A study of Danio rerio with 20 samples.

Results

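Complement and blood clotting genes were followed in zebrafish liver tumors driven by activated β-catenin. Of 39 gene symbols listed for both systems, 36 matched a gene of the count tables, as 39 genes of 32520 in all, 20 of complement and 19 of clotting. Genes were matched by symbol with case ignored, and a capital symbol without a paralog letter was accepted. No row carried the symbols c6, cfi or f7i. The symbol F7 was carried by 3 genes, given here by the last 5 digits of their identifiers, ENSDARG00000034862, ENSDARG00000075827 and ENSDARG00000100782. The symbol PROC, taken for proca, was carried by ENSDARG00000038258 and ENSDARG00000093079, and F9 by ENSDARG00000029493 for f9b. Reads of close paralogs, such as those of the C3 family and the F7 genes, may be shared between copies, so their single values are uncertain.

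Liver RNA of 20 male zebrafish was sequenced, with 1 library per fish, in 2 experiments. The HepABC experiment held 5 livers with hepatocellular carcinoma (HCC) from Tg(fabp10a-pt-beta-catenin) fish and 5 livers without HCC from non-transgenic siblings, all untreated and 6 months old. The CreLox experiment held Tg(fabp10a-CreERT2;fabp10a-flox-beta-catenin) fish exposed as larvae to 10 µM 4-hydroxytamoxifen (TAM) between days 3 and 6, 4 of them with HCC and 2 without. Its 4 controls were Tg(fabp10a-CreERT2) siblings without HCC that received 0.1% ethanol over the same days. The TAM solution also held 0.1% ethanol, according to the methods. All CreLox experiment fish were 11 months old. The fabp10a promoter is active in hepatocytes, so HepABC fish carry activated β-catenin across hepatocytes from early life, and in CreLox fish it is switched on in the hepatocytes that recombine. The sample labels list more CreLox livers with HCC than the study's methods do, and the labels were followed. TAM and the β-catenin transgene followed the same CreLox groups and cannot be told apart. Each liver was divided between histology and RNA, so each library is a mixture of the cells of that piece of tissue.

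Complement is a set of plasma proteins that mark and lyse microbes. The classical, lectin and alternative routes meet at C3, whose cleavage leads to C5 and to a pore of C6, C7, C8 and C9 in the target membrane. Clotting is a chain of plasma proteases that ends with thrombin, which turns fibrinogen into fibrin, while antithrombin, protein C and plasminogen restrain or dissolve the clot. Hepatocytes make most of both systems and secrete them into blood, and several of these genes belong to the acute phase response.

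Library totals ranged from 20903187 to 37994885 counts, and all 39 genes passed the low-count filter in every fit. Levels are CPM, that is counts divided by library sizes that were scaled within each experiment by TMM, which centers the change of most genes on 0, so levels of the 2 experiments were normalized separately and are not set against each other. TMM factors were 1.09 to 1.45 in HepABC HCC and 0.703 to 0.809 in non-transgenic controls, and 0.915 to 1.27 in CreLox HCC, 0.978 to 1.05 in CreLox without HCC and 0.772 to 1.07 in Cre driver controls. The highest value among HepABC HCC livers was that of fish 317E9 for 28 of the 39 genes. The highest value among CreLox HCC livers was that of fish 624 for 33 of the 39 genes, and fish 621 held the highest value among Cre driver controls for 28. Counts are therefore also given without fish 317E9 and without fish 624. Both of these fish were picked by their values in these same genes, so lower estimates without them follow from that choice.

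In HepABC HCC, complement and clotting genes fell together. Of the 39 genes, 32 were significantly lower than in non-transgenic controls (edgeR quasi-likelihood test, adjusted p under 0.05 over all genes tested, below termed called) and 0 were higher. Over all 15864 genes tested, 33.7% were called, 17.4% higher and 16.2% lower. The genes that fell were 14 of 20 complement genes and 18 of 19 clotting genes. The median log2 fold change was -1.80 over the complement genes and -2.10 over the clotting genes, beside a median over all genes tested of -0.0010. At least 4-fold lower estimates were found for 8 complement and 12 clotting genes. For 29 of the 39 genes every HepABC HCC liver was below every control liver, and for 0 every one was above. The 4-fold counts and the counts of separated livers were not made over all genes, so no background share stands beside them. Without fish 317E9, 34 genes were significantly lower, beside 35.2% of all genes called in either direction.

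The decrease was also present in the share of all counts, which scales by library totals in place of TMM and so carries the shift of all genes given below. The complement genes made up 1.37 to 2.84% of counts in HepABC HCC livers and 2.58 to 6.41% in non-transgenic control livers, with medians of 1.53% and 4.86%. The clotting genes made up 1.28 to 2.80% in HepABC HCC and 3.61 to 5.72% in controls. The clotting shares did not overlap between the groups, and the complement shares overlapped only through fish 317E9, at 2.84%, and the lowest control. Scaling by library size alone moved the median of all genes to 0.87 on the log2 scale. The complement median moved to -0.94 and the clotting median to -1.27. They lay 1.81 and 2.14 below the median of all genes. These distances repeat the TMM result, because the change of scaling shifts all genes by nearly the same amount. On that scale 25 genes were significantly lower, beside 5.38% of all genes, and c3b.1, c3b.2 and c7a were higher, beside 50.1% of all genes. Relative to the shifted median of all genes these 3 genes stood at -0.03, -0.10 and 0.59 (log2).

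Markers of hepatocytes, the cells that make these proteins, moved with them. Hepatocyte markers (fabp10a, tfa, fetub, ttr, apoa2 and ambp) were present in all livers at 4.05 to 12.1% of counts. In HepABC HCC 6 of 6 were lower, beside 16.2% of all genes, with a median log2 fold change of -1.82. Their summed level was 27923 to 47219 CPM against 131969 to 169285 CPM in controls. In each fish, the complement sum divided by the hepatocyte marker sum was 0.234 to 0.58 in HepABC HCC and 0.23 to 0.602 in controls, and the clotting sum divided by it was 0.269 to 0.57 in HepABC HCC and 0.322 to 0.536 in controls. Both ratios overlapped between the groups, and they were formed after the values were seen and not tested. In a bulk library, fewer hepatocytes and less of these RNAs per hepatocyte cannot be told apart. In its single-cell data the paper lists c3a.1, c9, cfb, f2 and fgb among genes raised in a hepatocyte cluster. Most cells of that cluster came from the HepABC HCC liver. That contrast is between clusters of cells, not of tumor against control, and was not examined here. In CreLox HCC 1 of 6 hepatocyte markers was lower, beside 1.81% of all genes. Summed levels were 73711 to 91925 CPM in CreLox HCC, 74939 to 109442 CPM without HCC and 74073 to 144917 CPM in Cre driver controls.

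**Figure D1:**
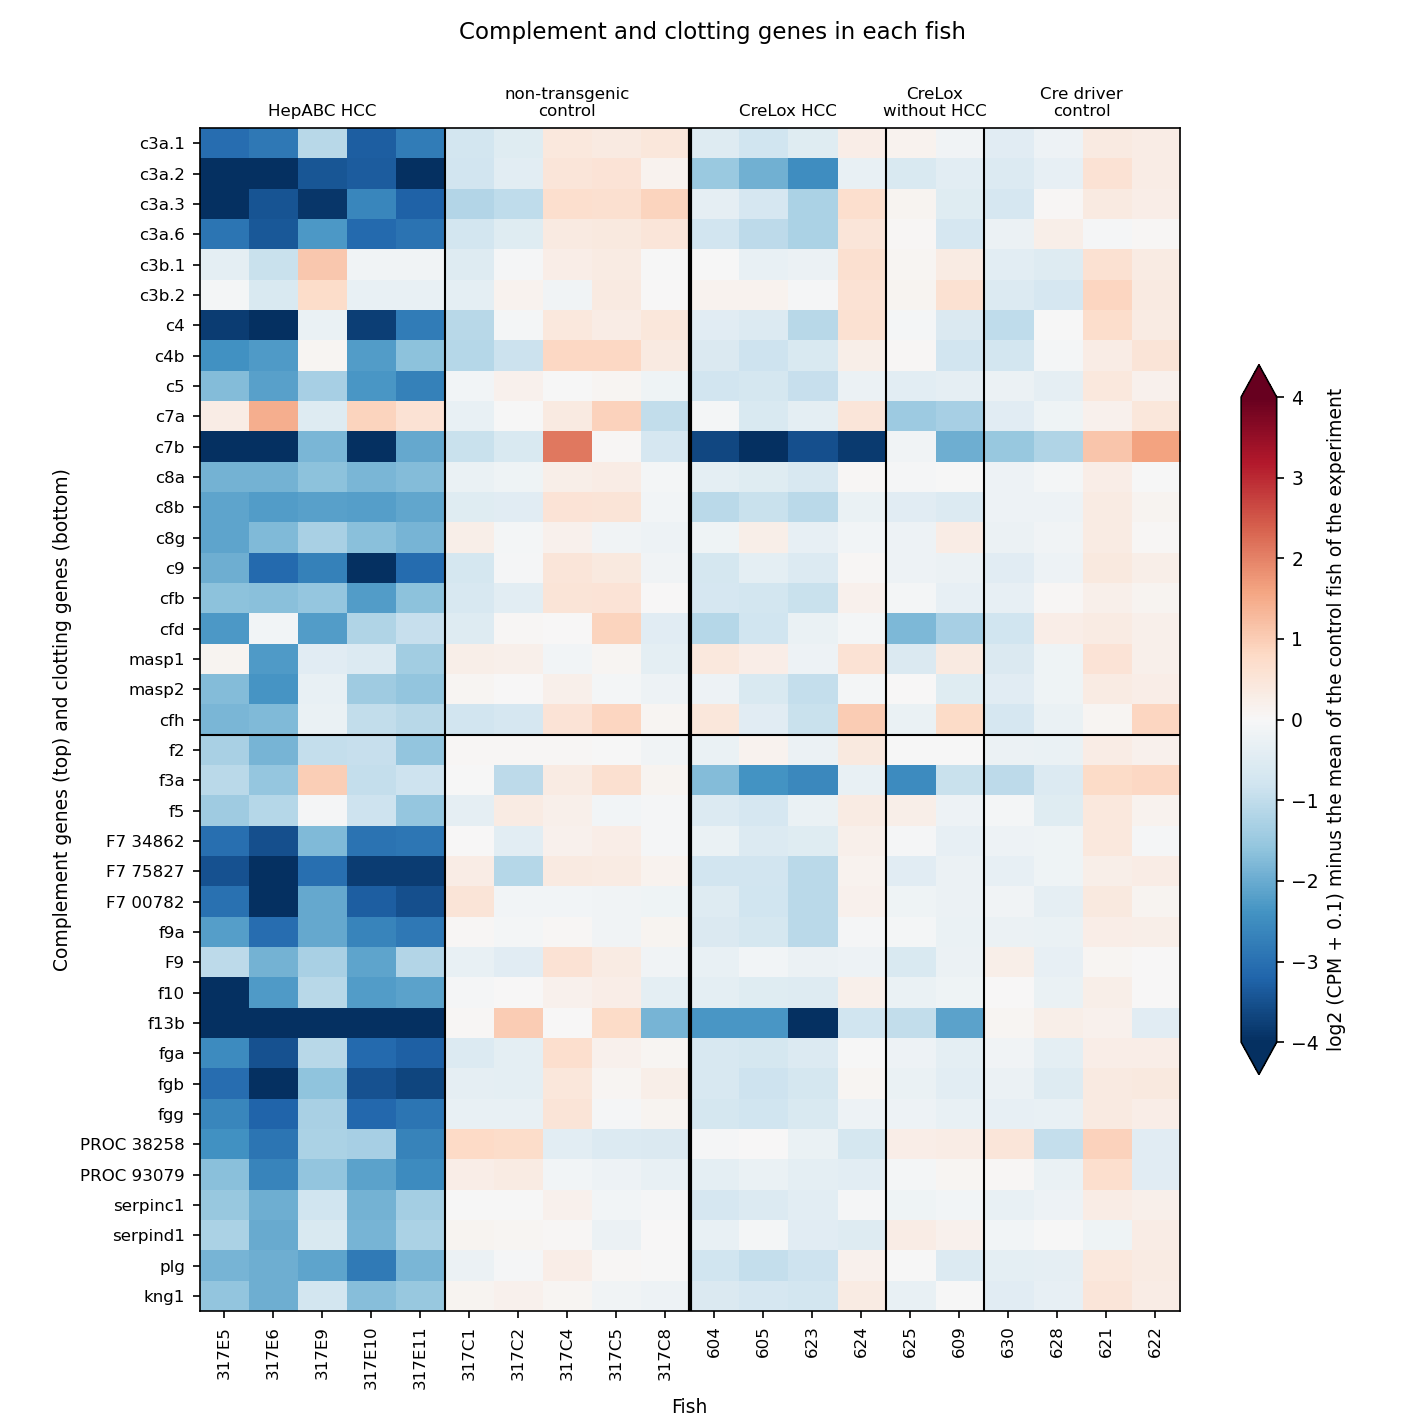
Heat map of the 20 complement genes (top) and 19 clotting genes (bottom), rows, in the 20 fish, columns grouped as HepABC HCC, non-transgenic control, CreLox HCC, CreLox without HCC and Cre driver control. Color is log2 (CPM + 0.1) minus the mean of the control fish of that experiment (blue lower, red higher, limits at -4 and 4). Most genes are blue in the 5 HepABC HCC livers except c3b.1, c3b.2 and c7a, fish 317E9 is paler than the others, and in CreLox HCC c7b is dark in all 4 fish.

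In CreLox HCC most of the same genes had estimates below 0 that were not significant. Only c7b was significantly lower, 1 of 39 genes, and 0 were higher. Over all 16837 genes tested, 4.20% were called, 1.81% lower. The log2 fold change was below 0 for 35 of the 39 genes, with medians of -0.39 for complement and -0.43 for clotting genes, beside -0.047 over all genes. An unadjusted p under 0.05 was reached by 8 of the 39 genes and by 23.5% of all genes. Without fish 624, 7 genes were significantly lower, namely c3a.2, c3a.6, c7b, c8b, cfb, f13b and the F7 gene ending in 75827. In that fit 5.91% of all genes were called. With control fish 621 left out instead, 1 of the 39 genes was called, beside 2.54% of all genes. Control 622 stayed in that fit. Summed complement levels were 51449 CPM in 621 and 48061 CPM in 622, against 28536 CPM in 630 and 35347 CPM in 628. TMM factors were 0.772 and 0.782 in 621 and 622, against 1.04 and 1.07 in 630 and 628. As shares of counts the complement genes made up 3.97, 3.76, 2.96 and 3.78% in 621, 622, 630 and 628. Whether the factors have a part in the CPM of these controls was not tested. The complement genes made up 2.67 to 4.21% of counts in CreLox HCC, 3.29 to 4.01% in CreLox without HCC and 2.96 to 3.97% in Cre driver controls, ranges that overlapped. The clotting genes made up 3.12 to 4.09% in CreLox HCC, 3.45 to 4.09% in CreLox without HCC and 3.63 to 4.22% in Cre driver controls.

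CreLox livers without HCC, compared with the same Cre driver controls, had 0 of 39 genes called by edgeR, beside 0.315% of all genes. An unadjusted p under 0.05 was found for 2 of them, c7a and cfd, beside 10.2% of all genes, and DESeq2 called both lower. The median log2 fold change was -0.26 for complement and -0.23 for clotting genes. Set directly against CreLox livers without HCC, CreLox HCC had 0 of 39 genes called by edgeR and 0 by DESeq2, beside 0.00594% of all genes by edgeR. Here 4 genes had an unadjusted p under 0.05, beside 3.05% of all genes: c7b and serpind1 with estimates below 0, and c7a and cfd with estimates above 0. With only 2 livers without HCC, these comparisons can show large differences only.

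The change itself was tested between the models, as the HepABC HCC change minus the CreLox HCC change in 1 fit of all 20 libraries. For 23 of the 39 genes this difference was significant and below 0, that is, the gene was lowered more in HepABC HCC. Over all 18645 genes, 11.3% differed, 5.33% in this direction. The 23 were 10 complement and 13 clotting genes. The models also differ in age, in how β-catenin was switched on and in TAM. Their controls differ too, being untreated non-transgenic siblings or ethanol-treated Cre driver siblings. The experiments were separate, and the removal of duplicate reads was described for CreLox only. These differences cannot be told apart.

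**Figure D2:**
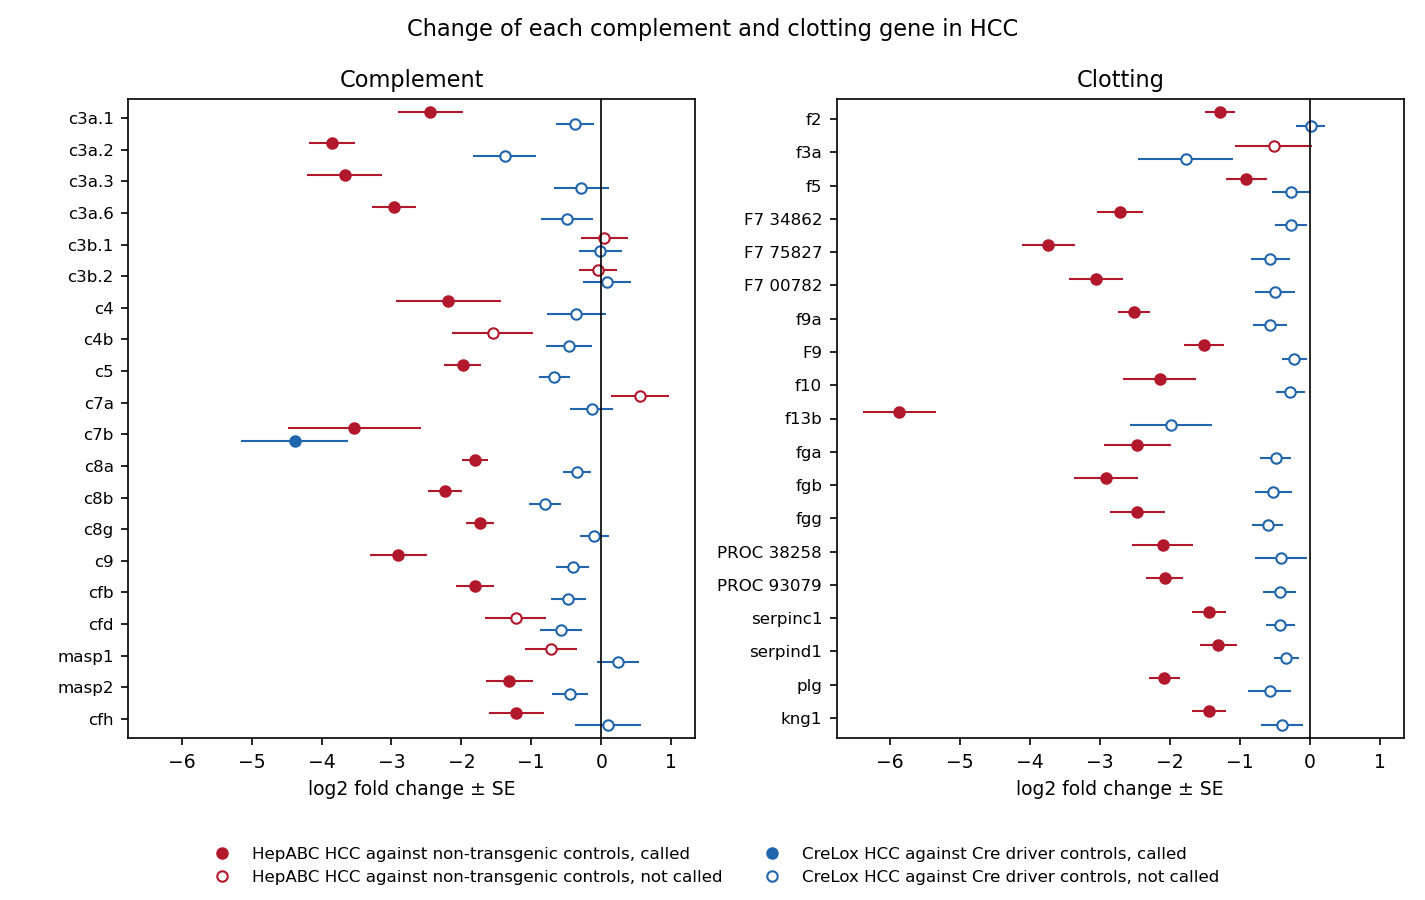
Log2 fold change of each complement gene (left) and clotting gene (right), with its standard error as a horizontal bar, for HepABC HCC against non-transgenic controls (red) and CreLox HCC against Cre driver controls (blue). Filled circles are significant at an adjusted p under 0.05 and open circles are not. Red points of 32 genes are filled and below 0, and c7b is the only filled blue point.

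The C3 genes divided by subfamily. C3 is the protein at which all routes of complement activation meet, and zebrafish has several copies. In the zebrafish RefSeq annotation (GRCz12tu) c3a.1, c3a.2, c3a.3 and c3a.6 lie in 1 cluster on chromosome 1, while c3b.1 and c3b.2 are neighbours on chromosome 22. All 4 c3a genes fell in HepABC HCC, beside 16.2% of all genes, and neither c3b gene was called. In HepABC HCC livers c3a.1 was at 2387, 2711, 9095, 2009.6 and 2813 CPM, against 11715, 14099, 26112, 24988 and 26492 CPM in non-transgenic controls. All 5 tumor values were below all 5 control values, with fish 317E9 highest among the tumors. The decrease was 5.44-fold (log2 fold change -2.44 ± 0.46 SE, edgeR adjusted p = 0.00243). In CreLox HCC c3a.1 was at 9256, 7648, 9479 and 15795 CPM, in CreLox without HCC at 14760.2 and 11924 CPM and in Cre driver controls at 9584, 11583, 17162 and 16179 CPM, and the groups overlapped (log2 fold change -0.37 ± 0.27 SE for HCC, edgeR adjusted p = 0.43).

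The c3a.2 gene had the largest decrease of the C3 family. It was at 247, 282, 441, 476 and 297 CPM in HepABC HCC, against 2795, 3559, 6569, 6943 and 5254 CPM in non-transgenic controls, 14.4-fold lower (log2 fold change -3.85 ± 0.33 SE, edgeR adjusted p = 5.00e-05). The highest tumor value was several times under the lowest control value. CreLox HCC livers had 993, 733, 494 and 2273 CPM, CreLox livers without HCC 1809.7 and 2093 CPM and Cre driver controls 1914, 2201, 4179 and 3415 CPM. Of the CreLox HCC fish, 604, 605 and 623 were below every control and fish 624 was within their range (log2 fold change -1.38 ± 0.45 SE, edgeR adjusted p = 0.11). DESeq2 and voom called this decrease, with adjusted p of 0.0300 and 0.0416.

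The neighbouring c3a.3 gene was at 61.8, 163, 121, 293 and 188 CPM in HepABC HCC, against 782, 882, 2801, 2788 and 3276 CPM in non-transgenic controls, 12.7-fold lower (log2 fold change -3.67 ± 0.54 SE, edgeR adjusted p = 0.000653). Controls fell into a low pair, 317C1 and 317C2, and 3 high fish, and the tumors were under both. In the CreLox experiment it was at 1432, 1154, 765 and 2908 CPM with HCC, 1964 and 1325 CPM without HCC and 1143, 1892, 2358 and 2229 CPM in Cre driver controls, with overlapping groups. The fourth gene, c3a.6, ranged over 162 to 347 CPM in HepABC HCC and 1036 to 2379 CPM in controls, 7.83-fold lower. In contrast, c3b.1 ranged over 238 to 933 CPM in HepABC HCC and 309 to 545 CPM in controls (log2 fold change 0.05 ± 0.34 SE). The second c3b gene, c3b.2, ranged over 414 to 1045 CPM and 476 to 808 CPM in the same groups (log2 fold change -0.05 ± 0.27 SE).

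Summed over each subfamily, c3a genes were at 2925 to 10004 CPM in HepABC HCC livers, against 16327 to 37688 CPM in non-transgenic control livers, while c3b genes were at 652 to 1978 CPM against 785 to 1353 CPM. The ratio of c3a to c3b counts, which no scaling affects, was 3.13 to 5.09 in HepABC HCC and 17.9 to 34.8 in controls. These ranges are far apart, and fish 317E9, with the highest c3a and c3b sums among the tumors, lies within the tumor range. In the CreLox experiment the ratio was 8.44 to 12.1 with HCC, 9.27 to 15.1 without HCC and 12 to 21.2 in Cre driver controls. This ratio was formed after the values were seen and was not tested.

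**Figure D3:**
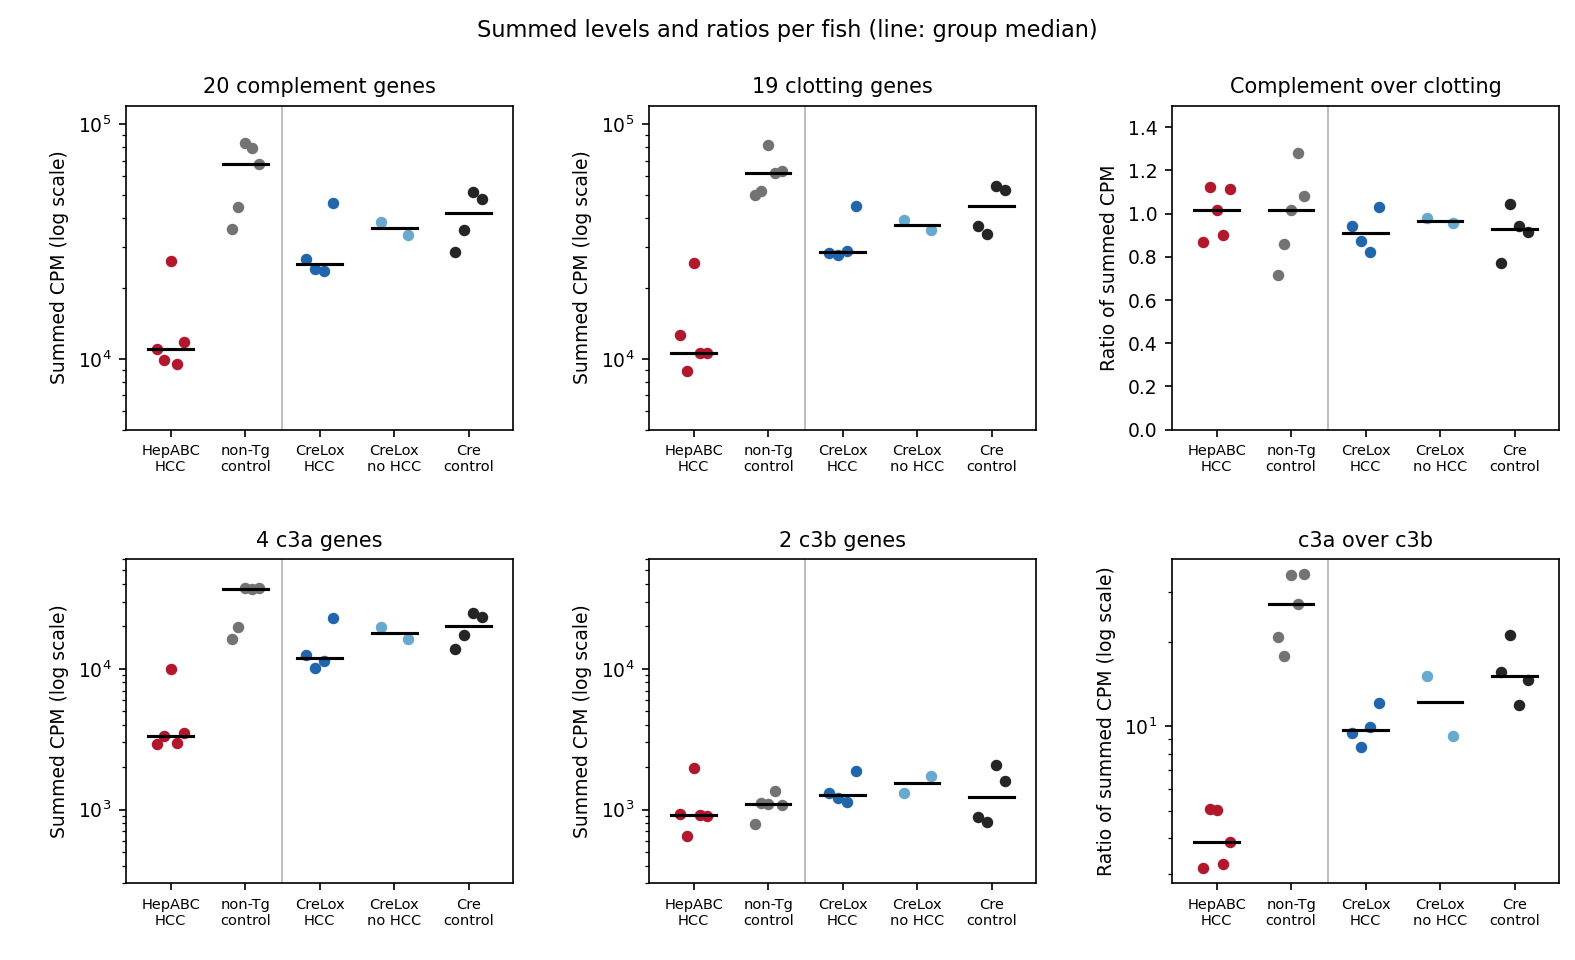
Summed CPM per fish of the complement and clotting genes and their ratio (top row), and of the c3a genes, the c3b genes and their ratio (bottom row), each dot 1 fish, the line the group median, in the order HepABC HCC, non-transgenic control, CreLox HCC, CreLox without HCC and Cre driver control. Vertical axes are logarithmic except for the complement to clotting ratio. In HepABC HCC both sums are lower by a similar factor, so that their ratio overlaps that of controls, whereas the c3a to c3b ratio of 3.13 to 5.09 is below the 17.9 to 34.8 of controls.

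C4 carries the classical and lectin routes and C5 opens the lytic route. The c5 gene was at 292 to 744 CPM in HepABC HCC, against 1677 to 2129 CPM in controls, 3.95-fold lower (edgeR adjusted p = 0.000353). The c4 gene was at 140.5, 109.8, 1608, 142 and 281 CPM in HepABC HCC and 893, 1833, 2606, 2388 and 2661 CPM in controls. Fish 317E9 was within the range of the controls and the other 4 tumors were below all of them. The c4 call (log2 fold change -2.19 ± 0.75 SE, edgeR adjusted p = 0.0419) remained in 2 of 10 leave-one-out fits, those without 317C1 and without 317E9, and the estimate without 317E9 was -3.58. The c4b gene, at 777 to 4354 CPM in HepABC HCC and 1892 to 7358 CPM in controls, missed the threshold (edgeR adjusted p = 0.0566), again with 317E9 apart at 4354 CPM. In CreLox HCC the log2 fold changes were -0.67 ± 0.23 SE for c5, -0.36 ± 0.42 SE for c4 and -0.45 ± 0.33 SE for c4b, none of them significant.

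Of the activating proteases, cfb and masp2 fell in HepABC HCC, and cfd and masp1 were not called. Factor B, encoded by cfb, supplies the protease of the alternative route. It was at 1872, 1850.3, 2008, 1250.3 and 1904 CPM in HepABC HCC, against 3818, 4429, 8353, 8540.0 and 5927 CPM in non-transgenic controls. Every tumor was lower than every control, and the tumors varied less than the controls. The decrease was 3.50-fold (log2 fold change -1.81 ± 0.27 SE, edgeR adjusted p = 0.000725). CreLox HCC livers had 2485, 2362, 2117 and 4467 CPM, CreLox livers without HCC 3678 and 3122 CPM and Cre driver controls 3128, 4011, 4479 and 4219.7 CPM. Here 604, 605 and 623 lay below the controls and 624 near the highest of them (log2 fold change -0.47 ± 0.25 SE, edgeR adjusted p = 0.29).

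Factor D, encoded by cfd, cuts factor B. Its level was 6.67 to 31.0 CPM in HepABC HCC and 23.5 to 62.3 CPM in controls (log2 fold change -1.22 ± 0.44 SE, edgeR adjusted p = 0.0510), just outside the threshold, and DESeq2 and voom called it lower. The proteases of the lectin route differed in size of change: masp2, at 119 to 495 CPM in HepABC HCC and 523 to 699.8 CPM in controls, was 2.49-fold lower (edgeR adjusted p = 0.0122), and masp1, at 19.6 to 102 CPM and 72.1 to 111 CPM in the same groups, had an estimate of -0.71 ± 0.37 SE (edgeR adjusted p = 0.16). In CreLox livers without HCC cfd was at 7.99 and 11.1 CPM, below all 4 Cre driver controls at 16.2, 33.6, 35.1 and 32.4 CPM, while CreLox HCC livers, at 12.7, 16.2, 23.1 and 26.8 CPM, overlapped the controls. The difference without HCC was -1.62 ± 0.41 SE on the log2 scale, with an edgeR adjusted p of 0.20. The regulator cfh, factor H, protects host cells from the alternative route. It was at 841 to 2517 CPM in HepABC HCC and 1757 to 5424 CPM in controls, 2.32-fold lower with overlapping fish (edgeR adjusted p = 0.0348). That call was kept in 3 of 10 leave-one-out fits, those without 317C1, 317C2 or 317E9.

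The lytic pore is assembled from C6 to C9. Of the 6 genes of this group with a row, 5 fell in HepABC HCC, beside 16.2% of all genes, and c7a did not. The c9 gene, whose product lines the pore, was at 1980.0, 899, 1189, 391 and 919 CPM in HepABC HCC, against 4786, 7407, 10807, 10207 and 7003 CPM in non-transgenic controls. Tumor and control values did not overlap, and 317E5, not 317E9, was the highest tumor. The decrease was 7.48-fold (log2 fold change -2.90 ± 0.41 SE, edgeR adjusted p = 0.000513). In the CreLox experiment c9 was at 3641, 4525, 4118 and 6163 CPM with HCC, 5215 and 5017 CPM without HCC and 4364, 5233, 7825 and 7065 CPM in Cre driver controls, in overlapping ranges (log2 fold change -0.41 ± 0.24 SE, edgeR adjusted p = 0.32).

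Of all 39 genes, c8b and c8a, for chains of C8, varied least among the HepABC HCC livers. In HepABC HCC c8a was at 290.4 to 348 CPM and c8b at 269 to 301 CPM, against 897 to 1319.9 CPM and 898 to 1853 CPM in controls, 3.49-fold and 4.70-fold lower. The third chain, c8g, was 3.32-fold lower, at 115 to 201 CPM against 436 to 583 CPM in controls. The gene c6.2, which RefSeq lists under the older name c6 and which was not counted among the 39, had an estimate of -0.77 ± 0.37 SE in HepABC HCC (edgeR adjusted p = 0.13). In CreLox HCC c8b was at 470.1, 537, 472 and 818 CPM, below all 4 Cre driver controls at 856, 851, 1240.3 and 1058 CPM, with CreLox livers without HCC at 721 and 673 CPM. This difference (log2 fold change -0.80 ± 0.23 SE, edgeR adjusted p = 0.0753) was not called by edgeR and was called by DESeq2 (adjusted p = 0.0176) and by voom (adjusted p = 0.0328). The other chains stayed nearer to 0, at -0.35 ± 0.19 SE for c8a and -0.10 ± 0.20 SE for c8g.

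The copies of C7 differed from each other. In HepABC HCC c7b was at 16.2, 60.1, 266, 16.9 and 227 CPM, against 513, 623, 4095, 971 and 587 CPM in non-transgenic controls. All tumors were lower than all controls, but the tumors spanned a 16.5-fold range and 1 control, 317C4, stood far above the rest. The decrease was 11.6-fold (log2 fold change -3.53 ± 0.95 SE, edgeR adjusted p = 0.0151). In CreLox HCC c7b was at 14.7, 9.45, 16.0 and 12.9 CPM, with 167 and 47.5 CPM in CreLox livers without HCC and 64.1, 80.2, 401 and 563 CPM in Cre driver controls. The 4 tumors were close to each other and below all other fish, while controls 621 and 622 were several times above 630 and 628. This was the only one of the 39 genes called by edgeR in CreLox HCC, 20.9-fold lower (log2 fold change -4.39 ± 0.76 SE, edgeR adjusted p = 0.0162). It missed the threshold without fish 604 (adjusted p = 0.0549) and without fish 605 (adjusted p = 0.0565). The c7b changes of the models did not differ detectably, with a difference of 0.88 ± 1.20 SE (edgeR adjusted p = 0.68). The scarce c7a was at 2.63 to 10.6 CPM in HepABC HCC and 1.88 to 7.29 CPM in controls (log2 fold change 0.56 ± 0.42 SE, edgeR adjusted p = 0.33).

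**Figure D4:**
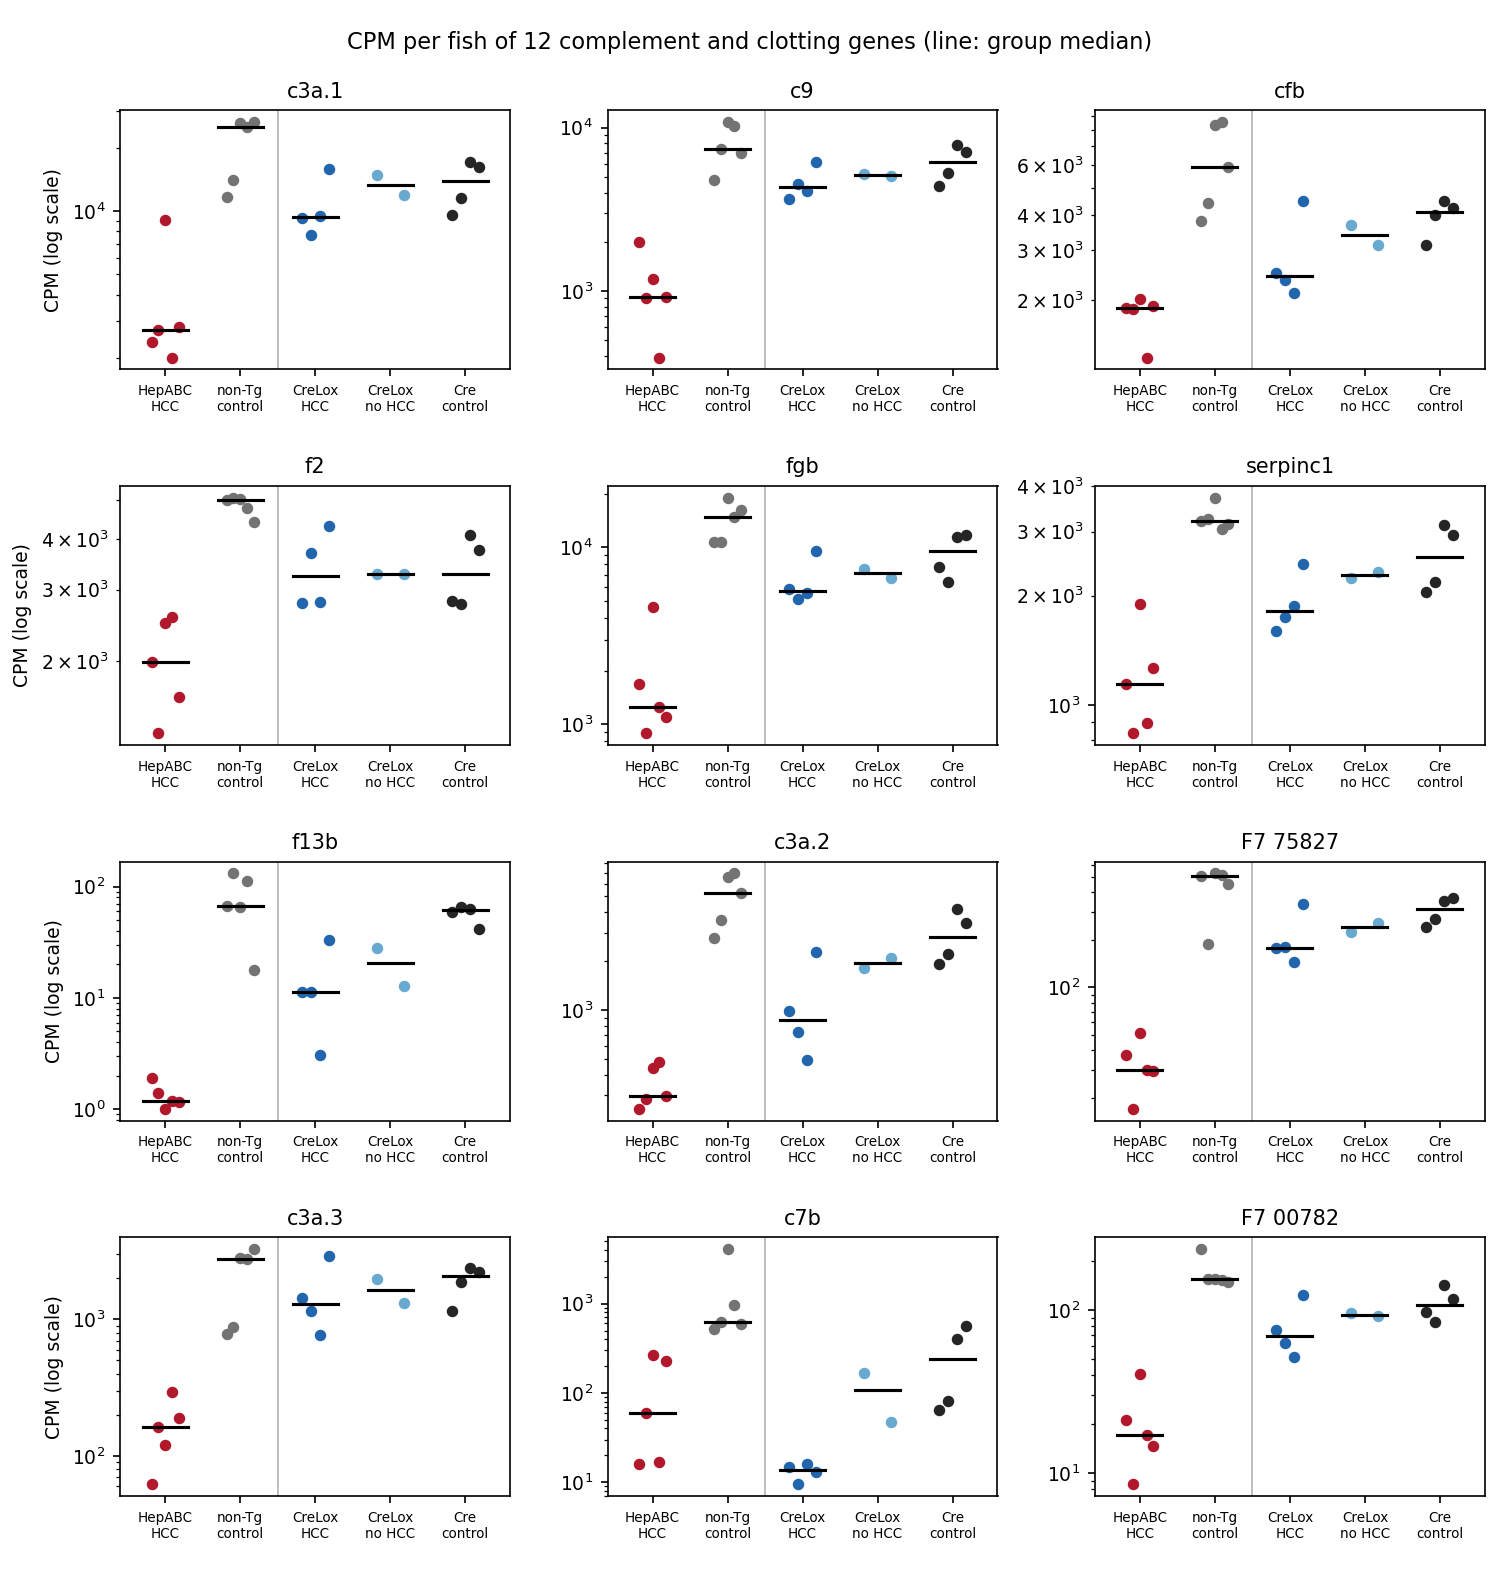
CPM (log scale) of 12 complement and clotting genes in each fish, each dot 1 fish, the line the group median, in the order HepABC HCC, non-transgenic control, CreLox HCC, CreLox without HCC and Cre driver control. All 12 show HepABC HCC below its controls without overlap. Those other than c3a.1, c9, cfb, f2, fgb and serpinc1 were chosen as the largest changes among called genes. Their separation follows in part from that choice, and separation was not counted over all genes. For c7b and f13b CreLox HCC is also below all Cre driver controls, and fish 624, the fourth CreLox HCC dot, is near the controls for most other genes.

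Of the clotting factors, 9 of 10 genes fell in HepABC HCC, beside 16.2% of all genes, and tissue factor f3a was not called. Prothrombin, encoded by f2, is the precursor of thrombin. It was at 1988, 1326, 2482, 2569 and 1626 CPM in HepABC HCC, against 4998, 5062, 5031, 4765 and 4417 CPM in non-transgenic controls. Controls were tightly grouped and all tumors lay under them. At 2.43-fold (log2 fold change -1.28 ± 0.21 SE, edgeR adjusted p = 0.00128) the f2 decrease was smaller than that of most clotting genes. On library size alone it was not called, with a log2 fold change of -0.42. In CreLox livers f2 was at 2774, 3687, 2789 and 4313 CPM with HCC, 3271 and 3270.5 CPM without HCC and 2818, 2769, 4094 and 3754 CPM in Cre driver controls, and its estimate was nearest to 0 of the clotting genes, 0.01 ± 0.21 SE.

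Coagulation factor VII starts clotting together with tissue factor, and its 3 gene rows all fell steeply, beside 16.2% of all genes lower. The F7 gene ending in 75827 was at 37.1, 17, 51.3, 29.8 and 29.4 CPM in HepABC HCC, against 509, 188, 528, 516 and 454 CPM in non-transgenic controls. Control 317C2 was well under the other controls and still above every tumor. The decrease was 13.3-fold (log2 fold change -3.74 ± 0.37 SE, edgeR adjusted p = 8.70e-05). CreLox HCC livers had 177, 179, 144 and 336 CPM, CreLox livers without HCC 223 and 257 CPM and Cre driver controls 240.3, 269.7, 355 and 371 CPM, with 624 the only CreLox HCC liver inside the control range.

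The F7 gene ending in 00782 was at 21.2, 8.51, 40.6, 17.1 and 14.6 CPM in HepABC HCC, against 238, 157, 155, 152 and 149 CPM in non-transgenic controls. It was 8.34-fold lower (log2 fold change -3.06 ± 0.39 SE, edgeR adjusted p = 0.000296), again with no overlap. In CreLox HCC it was at 75.9, 62.9, 51.7 and 124 CPM, with 96.3 and 92.0 CPM without HCC and 97.6, 85.1, 142 and 118 CPM in Cre driver controls. The third F7 gene, ending in 34862, was at 32.4 to 109 CPM in HepABC HCC and 279 to 445 CPM in controls, 6.57-fold lower (edgeR adjusted p = 0.000219). Which of these rows is f7 and which the zebrafish inhibitory copy f7i was not settled. For each F7 gene the decrease was larger in HepABC HCC than in CreLox HCC, by -2.43 ± 0.41 SE, -3.16 ± 0.47 SE and -2.55 ± 0.50 SE on the log2 scale in the order 34862, 75827, 00782, with edgeR adjusted p of 0.00210, 0.00133 and 0.00471.

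The largest decrease of all 39 genes was that of f13b, the carrier subunit of factor XIII, the enzyme that crosslinks fibrin. In HepABC HCC f13b was at 1.91, 1.40, 1.01, 1.20 and 1.16 CPM, from 36 to 97 reads, against 66.7, 132, 65.8, 111 and 17.8 CPM in non-transgenic controls. Even the lowest control, 317C8, was several times above every tumor. The decrease was 58.7-fold (log2 fold change -5.87 ± 0.52 SE, edgeR adjusted p = 5.17e-05). In CreLox HCC f13b was at 11.2, 11.2, 3.07 and 32.9 CPM, in CreLox without HCC at 28.3 and 12.9 CPM and in Cre driver controls at 59.5, 66.1, 63.5 and 41.5 CPM. All 6 CreLox livers, with and without HCC, were below all 4 controls. Neither difference was significant in edgeR (HCC -1.98 ± 0.58 SE, adjusted p = 0.0830, without HCC -1.48 ± 0.74 SE, adjusted p = 0.54). For CreLox HCC the decrease passed in DESeq2 (adjusted p = 0.00849) and in voom (adjusted p = 0.0382).

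The remaining factors act in the middle of the cascade. Of the factor IX genes, f9a was at 17.8 to 36.3 CPM in HepABC HCC and 137 to 162 CPM in controls, 5.72-fold lower. The other, F9, was at 64.8 to 136 CPM in HepABC HCC and 207 to 419.7 CPM in controls, 2.84-fold lower. The f10 gene, encoding the factor that cuts prothrombin, was 4.43-fold lower. It spread widely over the tumors, at 16.9, 123, 279, 125 and 136 CPM against 457 to 714 CPM in controls, with fish 317E5 far below and 317E9 above the others. The cofactor f5 was at 585 to 1679.5 CPM in HepABC HCC and 1354 to 2143 CPM in controls (log2 fold change -0.91 ± 0.30 SE, edgeR adjusted p = 0.0350), with overlap through 317E9, and its call was kept in 2 of 10 leave-one-out fits, those without 317C1 and without 317E9. Tissue factor f3a, which cells other than hepatocytes also make, was scarce in all livers, at 0.401 to 2.80 CPM in HepABC HCC and 0.606 to 2.20 CPM in controls. In CreLox HCC its estimate was -1.78 ± 0.68 SE (edgeR adjusted p = 0.15), on 13 to 53 reads per tumor.

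Fibrinogen is assembled from the products of fga, fgb and fgg, and all 3 genes fell in HepABC HCC, beside 16.2% of all genes. The fgb gene was at 1684, 888, 4591, 1256 and 1094 CPM in HepABC HCC, against 10783, 10663, 19102, 14796 and 16231 CPM in non-transgenic controls. Fish 317E9 was well above the other tumors and still below every control. The decrease was 7.52-fold (log2 fold change -2.91 ± 0.46 SE, edgeR adjusted p = 0.000967). The fga gene was at 1279.7 to 6581 CPM in HepABC HCC and 9776 to 22668 CPM in controls, 5.53-fold lower, and fgg was at 1263 to 4726 CPM and 9429.6 to 16668 CPM in the same groups, 5.52-fold lower. For all 3 fibrinogen genes fish 317E9 was the highest tumor. In CreLox HCC fgb was at 5833, 5080.4, 5496 and 9580.1 CPM, in CreLox without HCC at 7527 and 6747 CPM and in Cre driver controls at 7700.0, 6342, 11471 and 11728 CPM. Again 604, 605 and 623 were below the controls and 624 within them. The CreLox HCC estimates for fga, fgb and fgg were -0.49 ± 0.22, -0.52 ± 0.27 and -0.60 ± 0.22 SE on the log2 scale, none significant.

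Together the fibrinogen genes were at 3431 to 15898 CPM in HepABC HCC and 30031 to 58438 CPM in non-transgenic controls. They made up 38.6 to 62.0% of the summed clotting CPM in HepABC HCC (median 39.5%) and 59.5 to 71.7% in controls, the highest tumor being 317E9. The ratio of fgb to fga was 0.682 to 0.771 in HepABC HCC and 0.843 to 1.1 in controls, ranges that did not overlap. In CreLox livers that ratio overlapped, at 0.838 to 1.01 with HCC, 0.903 to 0.907 without HCC and 0.858 to 1.01 in Cre driver controls. These ratios were not tested.

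Genes that restrain or dissolve clots fell too, 5 of 5 in HepABC HCC including both PROC genes, beside 16.2% of all genes. Antithrombin, encoded by serpinc1, blocks thrombin and factor Xa. It was at 1146, 837, 1898, 890.3 and 1265 CPM in HepABC HCC, against 3213, 3247, 3722, 3044 and 3159 CPM in non-transgenic controls. No tumor reached a control. The decrease was 2.71-fold (log2 fold change -1.44 ± 0.24 SE, edgeR adjusted p = 0.00126). In the CreLox experiment serpinc1 was at 1596, 1748, 1875 and 2443 CPM with HCC, 2236 and 2325 CPM without HCC and 2044, 2179, 3127 and 2930.4 CPM in Cre driver controls (log2 fold change -0.42 ± 0.21 SE, edgeR adjusted p = 0.24). The difference between the models for serpinc1 was -1.0 ± 0.32 SE (edgeR adjusted p = 0.0476) and was kept in only 2 of 20 leave-one-out fits, those without 621 and without 317E9.

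The other inhibitor of thrombin, heparin cofactor II (serpind1), was at 219 to 582 CPM in HepABC HCC and 752 to 943 CPM in controls, 2.48-fold lower. Both PROC genes, for protein C, which inactivates clotting cofactors, fell by like amounts, 4.30-fold for the gene ending in 38258 and 4.21-fold for that ending in 93079. Their levels were 17.9 to 57.5 CPM and 31.3 to 65.8 CPM in HepABC HCC, against 92.4 to 239.8 CPM and 159.6 to 249 CPM in controls. Plasminogen, plg, the precursor of the enzyme that dissolves fibrin, was at 819.9 to 1636 CPM in HepABC HCC and 4957 to 6958 CPM in controls, 4.23-fold lower (edgeR adjusted p = 0.000128). Kininogen, kng1, a source of bradykinin, was at 426 to 1006 CPM in HepABC HCC and 1438 to 1859 CPM in controls, 2.70-fold lower. In CreLox HCC the estimates of these 5 genes lay between -0.58 and -0.34 on the log2 scale, and none was significant.

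Complement and clotting genes were set side by side. Summed complement levels were 9541 to 26072 CPM in HepABC HCC (median 11047) and 35683 to 82777 CPM in non-transgenic controls (median 67991). Summed clotting levels were 8851 to 25655 CPM (median 10604) and 49923 to 81467 CPM (median 62145) in the same groups. The ratio of complement to clotting within a fish was 0.871 to 1.12 in HepABC HCC and 0.715 to 1.28 in controls, so the tumor range lay within that of controls. Among CreLox livers it was 0.823 to 1.03 with HCC, 0.955 to 0.979 without HCC and 0.772 to 1.04 in Cre driver controls. Complement held more genes that were not called in HepABC HCC (6 of 20) than clotting (1 of 19), beside 33.7% of all genes called. The complement genes also spread more within groups: the highest HepABC HCC value exceeded the lowest 3.97 times in the median complement gene and 2.87 times in the median clotting gene, beside 2.26 and 1.59 times in controls.

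Further genes of both systems, from lists drawn up with earlier results of these data known, were counted in the same fits. Of 23 other complement genes tested in HepABC HCC, 12 were significantly lower and 0 higher, beside 16.2% lower and 17.4% higher of all genes. The 5 with the largest decreases were cfhl1 (-3.43), c3a.4 (-2.93), cfhl3 (-2.71), colec11 (-2.44) and serping1 (-2.42, log2 fold changes). Of these, cfhl1 and cfhl3 are related to factor H, colec11 is a collectin of the lectin route and serping1 encodes the C1 inhibitor. The C1q chain genes c1qa, c1qb and c1qc, made by macrophages and singled out after their values were seen, had estimates of -0.30 ± 0.68, -0.51 ± 0.63 and -0.55 ± 0.61 SE and were not called. In CreLox HCC 0 of 23 were called by edgeR, beside 4.20% of all genes, and 3 had an unadjusted p under 0.05, beside 23.5% of all genes.

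Of 26 other clotting genes tested in HepABC HCC, 19 were lower and 2 higher, beside the same 16.2% and 17.4% of all genes. The 5 largest changes were serpinf2a (-3.30), encoding an inhibitor of plasmin, PROZ (-3.28), encoding protein Z, vwf (-3.24), encoding von Willebrand factor of endothelial cells and thrombocytes, serpina10a (-3.21), encoding the protein Z-dependent inhibitor, and fgl1, the fibrinogen-like gene, which rose (2.58, edgeR adjusted p = 0.0493). The fgl1 gene had few reads, 10 to 82 per HepABC HCC liver and 0 to 7 per control, with the 82 in fish 317E11. Its CPM overlapped between these groups. The second gene that rose, named after its value was seen, was TFPI (0.86), encoding the tissue factor pathway inhibitor. In CreLox HCC 2 of 29 were lower, beside 1.81% of all genes, namely serpinf2a (-1.18 ± 0.25 SE, edgeR adjusted p = 0.0279) and serpina10a (-1.78 ± 0.35 SE, edgeR adjusted p = 0.0227). The fgl1 estimate in CreLox HCC was 2.42 ± 0.62 SE (edgeR adjusted p = 0.0574), on 15 to 34 reads per tumor.

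Markers of other cell types also differed. Over all genes tested, 16.2% were lower in HepABC HCC and 1.81% in CreLox HCC. In HepABC HCC exocrine pancreas markers were lower in 9 of 9 tested, at a summed 15.2 to 31.7 CPM against 20.1 to 8205 CPM in controls. Endothelial markers were lower in 2 of 2 (29.9 to 42.8 against 90.8 to 123 CPM), erythrocyte markers in 2 of 2 (25.6 to 66.8 against 286 to 635 CPM) and thrombocyte markers in 2 of 4 (2.80 to 3.67 against 3.79 to 14.5 CPM). Stellate cell markers were lower in 2 of 4, while 0 of 3 macrophage and 0 of 4 biliary markers were called by edgeR. Of these macrophage and biliary markers 0 had an unadjusted p under 0.05, beside 44.1% of all genes. In CreLox HCC 1 of 3 macrophage markers (csf1ra) was lower. There 0 of 10 exocrine pancreas markers were called by edgeR and 9 had an unadjusted p under 0.05, beside 23.5% of all genes. Their sums were 17.4 to 56.5 CPM in CreLox HCC, 8.65 to 211 CPM in CreLox without HCC and 52.7 to 638 CPM in Cre driver controls. Apart from 1 to 4 libraries at 0 for ela2l, pla2g1b, lyz, stab2 and a SOX9 gene, all marker genes with a row had reads in every library. The part of these cell types in the results was not tested.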

How the data were processed

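The deposited values are whole-number counts of reads per gene. According to the methods, the authors mapped reads to zebrafish GRCz11 with STAR 2.6.1b and counted them with featureCounts 1.6.3 (versions from the submitters' processing notes), after stranded mRNA libraries were sequenced as read pairs. Optical duplicates were removed for the CreLox reads, and no such step was described for HepABC. How reads shared by paralogs were treated was not given in the sources used here. Counts of genes with close copies are therefore less certain.

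Each experiment was fitted alone with edgeR 4.0.16 in R 4.3.3 (TMM, filterByExpr, quasi-likelihood F-test, 1 coefficient per group), and p-values were adjusted by Benjamini-Hochberg over all genes tested. A gene was called at an adjusted p under 0.05. The difference between the models came from 1 fit of all 20 libraries. Standard errors are the absolute log2 fold change divided by the square root of F. The members and lists were chosen with earlier results of these data known. Every member was counted. Values in every fish were given for c3a.1, c9, cfb, f2, fgb and serpinc1 and for up to 6 called members with the largest change in each HCC comparison, and values in every fish of other members were added after they were seen. Up to 5 called genes of the wider pathways were named by size of change.

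Alternatives were DESeq2 1.42.0, DESeq2 size factors, library size alone, 2 other filters, voom with sample weights (limma 3.58.1), a minimum log2 change of 1, fits of the 2 compared groups alone, and each fish left out in turn. On simulated data for HepABC HCC (15864 genes, 200 of them changed), 71% of genes changed by a log2 of 2 and 81% of those changed by 3 were called. For CreLox HCC (16837 genes) these shares were 53% and 77%. The changed genes were drawn at random from all genes tested, with noise that was independent between genes. These shares therefore do not give the power for the complement and clotting genes. No 2 libraries of a group were alike within sampling noise, the lowest chi-square per degree of freedom being 59.7. All columns of the tables belonged to samples of the series. RefSeq GRCz12tu served for names and gene neighbours only.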

Additional observations from a re-analysis of the deposited data

Results flagged for a closer look

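Single fish stood apart from the rest of their group in 23 of 156 sets of group and gene, by Dixon's criterion on CPM, or 14.7%. The criterion flags about 1 in 20 by chance for independent sets of normal values. CPM were not log-transformed here and genes measured in the same fish are not independent, so the shares cannot be compared. In HepABC HCC fish 317E9 was the high value for 11 genes. These were the complement genes c3a.1 (9095 CPM), c3b.1 (933 CPM), c4 (1608 CPM), c4b (4354 CPM) and masp2 (495 CPM), and the clotting genes f3a (2.80 CPM), the F7 gene ending in 34862 (109 CPM), fga (6581 CPM), fgb (4591 CPM), fgg (4726 CPM) and kng1 (1006 CPM). The same fish had a TMM factor of 1.09, below the 1.39 to 1.45 of the other HepABC HCC livers, and whether this has a part in its values was not tested. For cfb, fish 317E10 was the low value, at 1250.3 CPM.

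In CreLox HCC fish 624 was the high value for 5 genes, cfb (4467 CPM), f10 (544 CPM), fgb (9580.1 CPM), plg (5359 CPM) and kng1 (1539 CPM). Its TMM factor was 0.915, below the 1.1 to 1.27 of the other CreLox HCC livers, which was not tested as a part of its values either. Among non-transgenic controls the single values were 317C4 for c7b (4095 CPM, high), 317C5 for cfd (62.3 CPM, high) and for serpind1 (752 CPM, low), 317C2 for the F7 gene ending in 75827 (188 CPM, low) and 317C1 for that ending in 00782 (238 CPM, high). Among Cre driver controls, 630 was low for cfd (16.2 CPM).

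The change differed between the models for 23 genes, all with a larger decrease in HepABC HCC (edgeR, HepABC HCC change minus CreLox HCC change, log2). For complement these differences were -2.05, -2.44, -3.36 and -2.47 for c3a.1, c3a.2, c3a.3 and c3a.6, and -1.30 for c5. They were -1.44, -1.41 and -1.62 for c8a, c8b and c8g, -2.48 for c9 and -1.32 for cfb. For clotting factors they were -1.28 for f2, -2.43, -3.16 and -2.55 for the F7 genes ending in 34862, 75827 and 00782, -1.93 for f9a, -1.27 for F9 and -3.88 for f13b. For fga, fgb and fgg they were -1.96, -2.37 and -1.84, and for PROC ending in 93079, serpinc1 and plg -1.63, -1.0 and -1.49. The call was kept in all 20 leave-one-out fits for 17 of the 23 genes. It was lost in at least 1 of them for c3a.1, c5, cfb, F9, fga and serpinc1.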

How the results depend on the processing

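In HepABC HCC the number of genes called ranged over 28 to 35 of 39 under every alternative, including 34 with DESeq2, 35 with voom and 29 to 34 with 1 fish left out. Of all genes, 26.1% were called with DESeq2 and 37.3% with voom. No gene called in HepABC HCC changed direction with DESeq2, voom or library size alone. Of those not called, c3b.2 (0.77), f3a (0.23) and masp1 (0.14) had estimates above 0 with library size alone and c3b.1 had one below 0 with voom (-0.27). With library size alone the medians were -0.94 for complement and -1.27 for clotting genes, 3 genes were called higher and 25 lower, and f2 was no longer called. That scaling split all calls into 7955 higher and 854 lower, beside 2766 and 2576, and put the median of all genes at 0.22 in CreLox HCC. In CreLox HCC the 1 call became 4 with DESeq2, beside 7.99% of all genes, and 4 with voom, beside 4.38%. The genes c3a.2, c8b and f13b were added by both. Calls ranged over 0 to 7 with 1 fish left out, 0 without 604 or 605 and 7 without 624. The all-gene shares in these 3 fits were 1.40%, 1.46% and 5.91%. CreLox livers without HCC had 2 calls with DESeq2, c7a and cfd, beside 1.32% of all genes. The 23 differences between the models ranged over 17 to 30 with 1 fish left out and were 19 with library size alone and 26 with DESeq2. Of all genes, 18.7% differed with library size alone and 11.6% with DESeq2. Over all genes, DESeq2 called 2049 in CreLox HCC beside 707, 338 in CreLox without HCC beside 53 (voom 2, genes with at least 10 counts 13, the 2 groups alone 26) and 16 in CreLox HCC against CreLox without HCC beside 1. DESeq2 was fitted to the 25658 genes of the CreLox experiment with any reads and edgeR tested 16837, so these numbers of calls are not over the same genes. Shares of all genes given for DESeq2 are over all genes fitted, including any without an adjusted p. They are therefore minimum shares. Library size alone called 8809 genes in HepABC HCC beside 5342 and 3482 differences between the models beside 2115. The causes were not tested. No paired analysis was possible because groups share no fish and the numbers only name fish. With 2 to 5 fish a group, small changes were not detectable at this depth and number of fish.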
